A study of Nicotiana tabacum with 36 samples.

Results

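The genes at the far end of tobacco chromosome 21 were taken as every gene in the deposited count table that lies on chromosome 21 and starts between 79 and 83 Mb. The rule gave 73 genes of the 35519 in the table, and 60 of them had enough reads to be tested, against 23740 of all genes. The stretch was chosen by measured values, because its genes had looked raised about 2-fold in the cultivar Yanyan97. The difference between the cultivars is therefore given here as a description with no test, and tests are kept for the response to cold, which did not choose the genes.

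RNA came from leaves of seedlings at the five-leaf stage of Taiyan8 (TT, cold susceptible) and Yanyan97 (YT, cold resistant), grown under 16 h of light and 8 h of dark. Seedlings were sampled at 0 h (CK) and after 0.5, 1, 2, 4 and 8 h at 4 °C, with 3 libraries for each of the 12 groups and 36 in all. No library of seedlings held at the growth temperature to a matching hour was analysed here, so cold and time of day cannot be told apart. The labels name no allele and no agent other than cold. The labels name the tissue as seedlings and the protocol names leaves, and leaf marker genes were not checked because the gene IDs carry no gene names.

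The count totals of the libraries ran from 15484160 (YT 4 h replicate 3) to 26691552, and the second lowest was 22239372. A gene with no more than 3 counts in every library of a group was taken to be at the floor, and its fold is given as a bound that covers counting error only.

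Tobacco is an allotetraploid, in which many genes exist as homeologous copies inherited from different ancestral species. Reads that fit more than 1 place in the genome were left out of the counts, so reads from near-identical copies can be lost or placed on the other copy. The level of a single copy carries that uncertainty throughout. Reads were also counted without regard to strand, which matters for close or overlapping neighbours.

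The 73 genes lie on 5 sequence scaffolds placed one after another along the chromosome. Scaffold Nitab4.5_0001478 spans 79597213 to 80094857 with 23 genes, of which 21 were tested. Scaffold Nitab4.5_0002545 spans 80167625 to 80378021 with 10 tested genes of 12, and Nitab4.5_0002809 spans 80612161 to 80880555 with 6 of 8. Scaffold Nitab4.5_0001751 spans 81578802 to 81954300 with 12 of 17, and Nitab4.5_0002587 spans 82159998 to 82505852 with 11 of 13. Of the 13 genes not tested, 8 had no read in any library and none exceeded 17 reads in a library.

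The cultivar difference was not one uniform shift across the stretch. Each gene's difference is the mean over the 6 time points of log2 YT minus TT, so that 1 is a doubling in YT. The median over the 60 tested genes was 0.83, against 0.02 over all genes tested and 0.01 over the 577 other tested genes of chromosome 21. The 3 genes that lay at the floor in TT have log2 bounds of 3.56, 1.38 and 1.55. All lie above the 0.83 of the 60 genes, so setting these genes to their bounds could not move that median. In the 4 Mb just below the stretch the median of 38 genes was 0.03.

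A difference between 0.5 and 1.5 was found for 28 of the 60 genes, where 8.66% of all tested genes had one. A larger fitted difference was found for 13 genes, 3 of them at the floor in TT, where 3.05% of all tested genes had one. Every YT library lay above every TT library at all 6 time points for 16 genes, against 1.13% of all tested genes. These shares restate what the genes were chosen for.

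A near doubling held for the first scaffold and not for the others. On Nitab4.5_0001478, 18 of the 21 tested genes had a difference between 0.5 and 1.5, with a median of 0.97 and quartiles of 0.78 and 1.08. The medians were -0.02 on Nitab4.5_0002545 and -0.08 on Nitab4.5_0002809, where 10 of 16 genes lay within 0.5 of no difference. On Nitab4.5_0001751 and Nitab4.5_0002587 the medians were 1.64 and 0.93, and the genes were spread more widely. Leaving out the 8 of their 23 genes that lay at the floor in 1 or more groups, whose fitted values are no bounds, they ranged from -0.17 to 3.98 and from 0.33 to 3.74. The label of a 2-fold raised stretch therefore describes the first scaffold, and the rest is called here by its scaffolds.

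**Figure D1:**
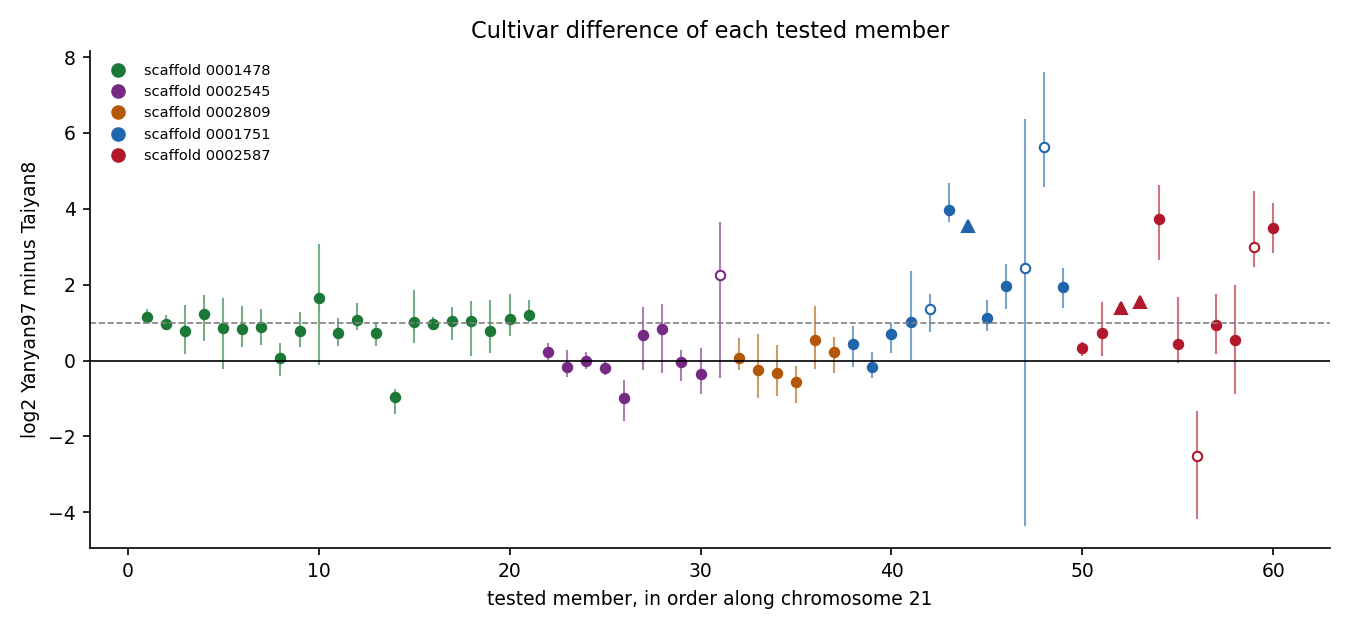
Cultivar difference (log2 YT minus TT, vertical axis) of the 60 tested genes in order along chromosome 21 (horizontal axis), coloured by scaffold. Circles are means over the 6 time points, open where a group lay at the floor, vertical lines run from the lowest to the highest time point, triangles are lower bounds of the 3 genes at the floor in TT, and the dashed line marks a doubling. The 21 genes of the first scaffold gather around the dashed line with a median of 0.97, the next 16 gather around 0, and the 15 filled circles of the last 23 genes range from -0.17 to 3.98.

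At the edges, the first tested genes inside the stretch were Nitab4.5_0001478g0200 (79597213 to 79601525), with a difference of 1.15, and Nitab4.5_0001478g0150 (79619610 to 79622523), with 0.97. The nearest tested genes below it were Nitab4.5_0003558g0090 (78091382 to 78093237), with -0.53, and Nitab4.5_0003558g0070 (78062780 to 78063754), with -0.11. The last tested genes inside were Nitab4.5_0002587g0110, with a fitted 2.998 (1 group at the floor), and Nitab4.5_0002587g0090, with 3.50. The table holds 0 genes of chromosome 21 beyond 83 Mb.

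Among the genes of the first scaffold, 3 are described by name in the study's lists, which were drawn up on these same samples. Nitab4.5_0001478g0080 is described as ASB1, the beta subunit of anthranilate synthase, an enzyme known from Arabidopsis to act at the entry to tryptophan synthesis. It had 11.3, 15.7 and 22.0 CPM (counts scaled to a common library depth) in the lowest, middle and highest of the 18 TT libraries, and 26.99, 32.6 and 36.8 CPM in YT. The cultivars did not overlap, and the difference of 0.97 varied from 0.84 to 1.11 between time points.

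Nitab4.5_0001478g0200 is listed as a G2-like factor, a family of DNA-binding proteins that includes regulators of chloroplast development in Arabidopsis. Its levels were 16.6, 22.4 and 32.5 CPM in TT and 40.8, 51.3 and 68.1 CPM in YT, again without overlap. Nitab4.5_0001478g0040 is listed as a SnRK, a kinase related to yeast SNF1, a family known for energy and stress signalling. It ranged from 10.8 to 768 CPM in TT and from 23.8 to 1092 CPM in YT, and its difference ran from 0.22 to 1.58 depending on the time point.

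The genes of the first scaffold with at least 10 CPM on average also included Nitab4.5_0001478g0150, g0120, g0030 and g0010 of the same scaffold, with differences of 0.97, 0.74, 1.10 and 1.21. Nitab4.5_0001478g0050, which the study's lists name without a description, had 1.04. The 3 exceptions to the near doubling follow, of which Nitab4.5_0001478g0140 and g0220 were chosen after their values were seen. Nitab4.5_0001478g0140, at under 1 CPM on average, had a difference of 1.65. Nitab4.5_0001478g0220 had 0.06, and Nitab4.5_0001478g0110 was lower in YT, with -0.96. For Nitab4.5_0001478g0110 the lowest, middle and highest levels were 15.4, 30.7 and 46.6 CPM in TT and 7.54, 16.5 and 27.4 CPM in YT, and every TT library lay above every YT library of the same time point.

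Some gene models of the first scaffold were matched to those of a scaffold on chromosome 8, Nitab4.5_0002315. This comparison was chosen after the values were seen, and it rests on the gene models alone, since no sequence was available here. Matching models in the same order and on the same strand, with exon numbers differing by at most 1 and a length ratio of at least 0.75, gave a chain of 12 pairs out of 23 and 20 genes. How long a chain unrelated scaffolds would give was not tested. Nitab4.5_0001478g0040 and Nitab4.5_0002315g0110 are each 1 exon of 1278 bases, and both are listed as SnRK kinases. Nitab4.5_0001478g0080 and Nitab4.5_0002315g0030 each have 7 exons, and both are described as ASB1.

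In the 11 pairs whose chromosome 21 gene had at least 1 CPM in TT, the chromosome 8 model was nearly silent in YT. Its mean over the YT libraries was at most 0.486 CPM, whereas in TT it supplied between 32.4% and 68.4% of the pair's summed counts. The chromosome 21 genes of these pairs were 1.37 to 2.37 times as high in YT, with a median of 2.04. The summed level of a pair was 0.68 to 1.43 times as high in YT, with a median of 1.247. Outside the chain, Nitab4.5_0001478g0120 and g0230 had differences of 0.74 and 0.89, and g0220 and g0110 had 0.06 and -0.96. The other tested genes of this scaffold outside the chain were g0180, g0170, g0160, g0210, g0140 and g0130. Their differences were 0.78, 0.84, 0.84, 0.78, 1.65 and 0.74, and they were added after their values were seen. On chromosome 8, Nitab4.5_0002315g0140, g0150 and g0190, also outside the chain, averaged 196, 159 and 115 CPM in YT. In TT they averaged 301, 237 and 113 CPM. Nitab4.5_0002315g0090, also unmatched, averaged 0.0022 CPM in YT and 1.87 CPM in TT. These chromosome 8 genes were chosen after their values were seen. The part of the chromosome 8 models in the raised levels on chromosome 21 was not tested.

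For ASB1 the pair summed to 35.2 CPM in TT, with 16.1 on chromosome 21 and 19.02 on chromosome 8, and to 31.8 CPM in YT. For the G2-like gene the sums were 41.8 CPM in TT and 52.2 CPM in YT, with 18.2 and 0.0364 CPM on chromosome 8. For the SnRK gene they were 535 CPM in TT and 389.6 CPM in YT, so that the sum was 0.728 times as high in YT and the chromosome 21 gene alone 1.37 times.

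**Figure D2:**
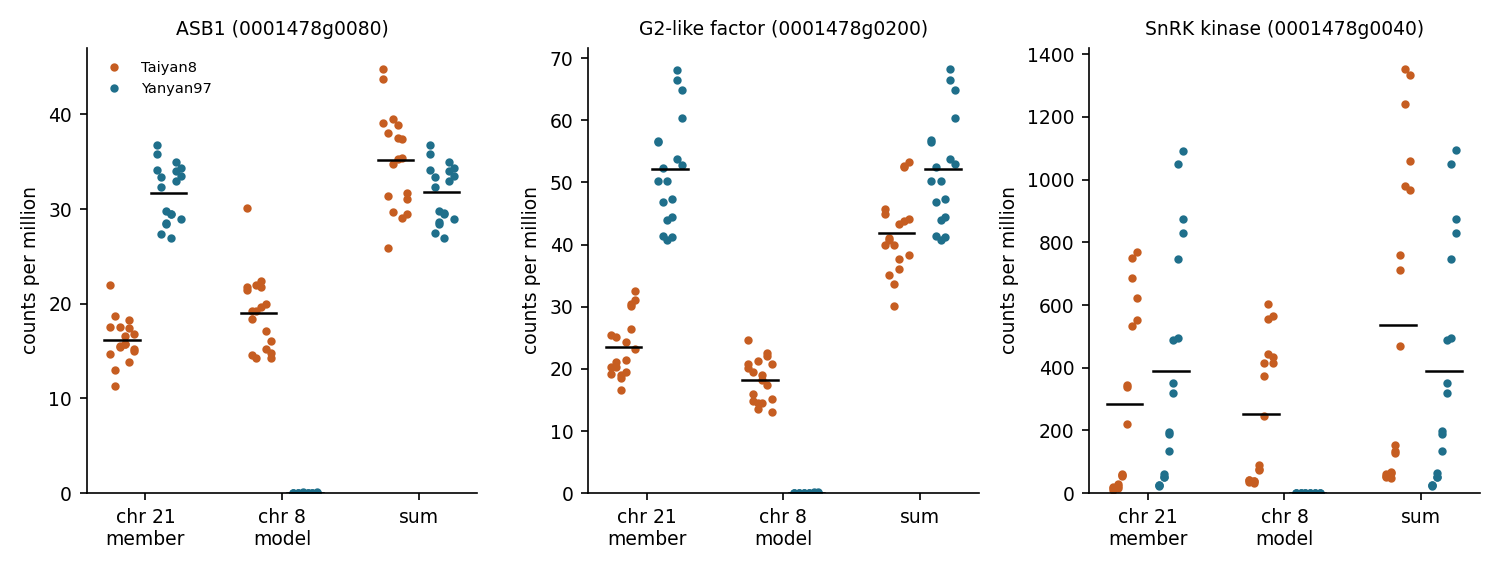
CPM (vertical axis) in each of the 36 libraries for the chromosome 21 gene, the matched chromosome 8 model and their sum (horizontal axis), for ASB1, the G2-like gene and the SnRK gene. Points are libraries in order of time, and bars are means over 18 libraries per cultivar. The chromosome 8 model stays near 0 in YT, while in TT it averages 19.02, 18.2 and 252 CPM.

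On the middle scaffolds 10 of the 16 differences were small, as given above. On Nitab4.5_0002545 the genes with at least 10 CPM were g0010, g0030, g0040, g0050 and g0110, and their differences were 0.23, -0.02, -0.21, -0.98 and -0.37. On Nitab4.5_0002809 they were g0070, g0030 and g0020, with 0.07, -0.58 and 0.21. Nitab4.5_0002545g0050 had 29.01, 60.1 and 601 CPM in the lowest, middle and highest TT library and 12.6, 27.7 and 503 CPM in YT. Nitab4.5_0002809g0030 had 121, 311 and 643 CPM in TT and 80.8, 228 and 358 CPM in YT. Over the whole course the ranges of both genes overlapped, but each had 4 of the 6 time points at which every TT library lay above every YT library. These were 0, 0.5, 1 and 4 h for Nitab4.5_0002545g0050 and 0, 0.5, 4 and 8 h for Nitab4.5_0002809g0030.

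The last 2 scaffolds mixed genes at like levels with genes that were close to silent in TT. Those with at least 10 CPM on Nitab4.5_0001751 were g0010, g0080, g0060, g0030 and g0070, with differences of 0.43, -0.17, 0.70, 1.12 and 1.96. On Nitab4.5_0002587 they were g0020, g0050, g0040 and g0080, with 0.33, 0.73, 0.43 and 0.93. Nitab4.5_0001751g0060 had 119, 148 and 217 CPM in TT and 172, 240 and 471 CPM in YT, and YT lay above TT at all 6 time points. Nitab4.5_0001751g0010 had 31.96, 50.1 and 82.9 CPM in TT and 49.5, 63.1 and 121 CPM in YT, and Nitab4.5_0002587g0080 had 21.7, 33.97 and 78.7 CPM in TT and 24.9, 65.3 and 151 CPM in YT.

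Per unit of length, the highest mean levels of the stretch were 335 TPM (the authors' length-scaled unit) for Nitab4.5_0002587g0040, 317 TPM for Nitab4.5_0001478g0040 and 218 TPM for Nitab4.5_0001751g0010. Nitab4.5_0002545g0060 was listed at 0.00112 TPM on average although it had 6.62 CPM. It starts close to the end of Nitab4.5_0002545g0080 on the same strand, and values of these neighbours are uncertain.

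Several genes of the last scaffolds were read almost only in YT. Those with under 10 CPM on average that were not called and do not lie at the edge were chosen after their values were seen. They are Nitab4.5_0001751g0040, g0090 and g0160 and Nitab4.5_0002587g0030, g0060 and g0070. Nitab4.5_0001751g0110, described below, was chosen in the same way but was not read almost only in YT. Nitab4.5_0001751g0040 had at most 1 count in a TT library and between 18 and 64 counts in each YT library, so that it was at least 11.8-fold higher in YT. Nitab4.5_0002587g0060 had 0 counts over all TT libraries and was at least 2.60-fold higher in YT, where 3 libraries were also at 0. Nitab4.5_0002587g0070 had 1 count over all TT libraries and was at least 2.93-fold higher in YT.

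Nitab4.5_0001751g0160, at the floor in TT only at 8 h (1, 0 and 2 counts), had 0, 0.173 and 0.465 CPM in the lowest, middle and highest TT library. In YT it had 2.83, 8.23 and 12.99 CPM. The genes given next lay above the floor in every TT group. Nitab4.5_0001751g0090 had 0.132, 0.464 and 1.24 CPM in TT and 4.87, 8.81 and 14.2 CPM in YT. Nitab4.5_0002587g0090 had 0.132, 0.528 and 1.31 CPM in TT and 1.66, 5.99 and 15.003 CPM in YT. Nitab4.5_0002587g0030 had 0, 0.167 and 0.747 CPM in TT and 0.786, 2.22 and 4.39 CPM in YT. None of these 4 genes overlapped between the cultivars, though for Nitab4.5_0002587g0030 the gap was only from 0.747 to 0.786 CPM. The share of all tested genes without overlap over the whole course was not determined.

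Nitab4.5_0001751g0070, listed as a DBP factor, a family of DNA-binding proteins that carry a protein phosphatase domain, had 2.40, 4.02 and 9.63 CPM in TT and 11.2, 16.0 and 26.4 CPM in YT. Nitab4.5_0001751g0130, also on the study's lists without a description, averaged 0.46 CPM in TT and 1.80 CPM in YT. In the other direction, Nitab4.5_0002587g0130 averaged 1.85 CPM in TT and 0.472 CPM in YT. Nitab4.5_0001751g0110 swung between libraries of the same group, from 0 to 158 counts in YT, and no direction is read from it.

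**Figure D3:**
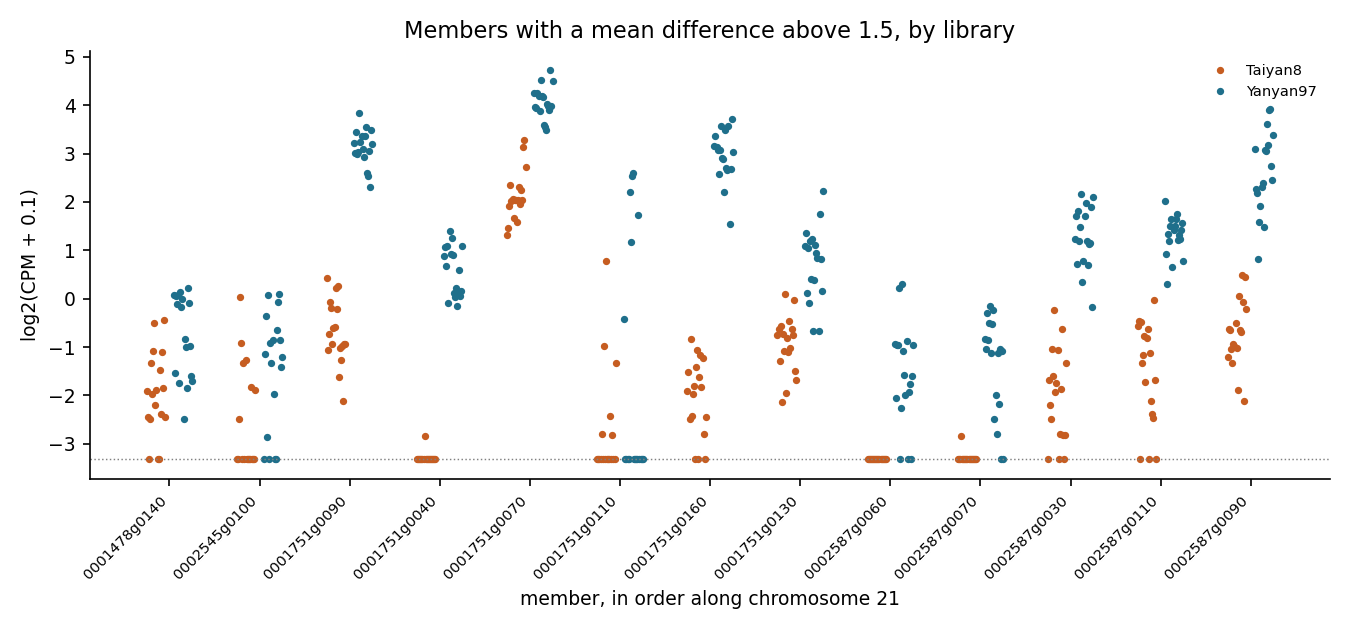
Levels in each library on a log2(CPM + 0.1) scale (vertical axis) for the 13 genes with a fitted cultivar difference above 1.5 (horizontal axis, in order along the chromosome). Points are the 18 libraries of each cultivar and the dotted line is 0 CPM. Nitab4.5_0001751g0040 and Nitab4.5_0002587g0060 lie on or next to the dotted line in TT, and Nitab4.5_0001751g0110 has YT libraries both on it and far above it.

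The response to cold was then tested within each cultivar against 0 h, with edgeR's quasi-likelihood test over all genes. Calls needed a change of more than 1 on the log2 scale, in either direction, with a p under 0.05 after Benjamini-Hochberg adjustment. The 60 include Nitab4.5_0001751g0040, Nitab4.5_0002587g0060 and Nitab4.5_0002587g0070, which had at most 1 count in any TT library. They had enough reads to be tested only through YT, and no response in TT could be seen in them. Other genes close to silent in TT had few reads in which to see one. In TT, 3, 4, 4, 6 and 17 of the 60 genes were called at 0.5, 1, 2, 4 and 8 h. The shares of all tested genes called were 6.30%, 7.45%, 14.4%, 15.5% and 21.2%. In YT, 2, 3, 2, 9 and 13 genes were called at those times, where 1.57%, 3.93%, 7.91%, 12.6% and 17.3% of all genes were.

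At 8 h in TT 11 genes rose and 6 fell, against 12.4% and 8.79% of all tested genes. At 8 h in YT 5 rose and 8 fell, against 9.94% and 7.33%. Over the whole course 20 of the 60 passed at 1 or more time points in TT and 16 in YT, 13 of them in both, where 29.7% and 22.4% of all tested genes were called. The middle log2 value at 8 h among the 60 genes was -0.02 for TT (all genes -0.05) and -0.23 for YT (all genes -0.02). The comparisons of a cultivar share its 0 h libraries. At 0.5 h in YT the 2 calls became 1 without YT 0 h replicate 2 or without YT 0.5 h replicate 3.

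The SnRK gene Nitab4.5_0001478g0040 rose most. In TT it went from 18.1, 10.8 and 15.1 CPM at 0 h to 686, 749 and 533 CPM at 4 h, which is 5.48 on the log2 scale (SE 0.283, adjusted p = 8.51e-15). In YT it reached 829, 873 and 1092 CPM at 8 h from 27.4, 23.8 and 25.4 CPM, a log2 change of 5.19 (SE 0.278, adjusted p = 1.52e-14). It was called from 1 h in TT and from 0.5 h in YT (the 0.5 h call in 4 of 6 fits that each left out 1 library), and its response was not called as different between the cultivars at any time. Its chromosome 8 counterpart rose in TT as well, from 42.4, 42.6 and 36.01 CPM at 0 h to 434, 565 and 414 CPM at 8 h (log2 fold change 3.55, SE 0.622, adjusted p = 4.92e-05).

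ASB1 and the G2-like gene were not called at 8 h. The log2 fold change of ASB1 was -0.21 in TT and -0.14 in YT, and that of the G2-like gene was 0.42 and 0.12.

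On the first scaffold the other called genes were Nitab4.5_0001478g0030 and g0010, which rose in TT, and g0120, g0060, g0110, g0100 and g0230, which fell. Nitab4.5_0001478g0030 rose from 5.17, 5.24 and 5.43 CPM to 20.1, 10.1 and 20.2 CPM at 8 h in TT. Nitab4.5_0001478g0010 rose from 7.78, 7.93 and 9.57 CPM to 16.9, 17.9 and 20.6 CPM at 8 h in TT. Neither was called in YT.

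Nitab4.5_0001478g0120 fell from 22.0, 14.5 and 15.8 CPM to 6.86, 6.15 and 7.68 CPM at 8 h in TT, a log2 change of -1.34 (SE 0.231, adjusted p = 2.64e-05), and was also called at 4 and 8 h in YT, the latter in 4 of 6 fits that each left out 1 library. Nitab4.5_0001478g0060 fell from 2.98, 2.48 and 3.18 CPM to 0.748, 0.382 and 1.01 CPM at 8 h in TT, and was called at 8 h in YT as well. In both genes the cold libraries lay below every 0 h library.

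Nitab4.5_0001478g0110 fell at 4 h in TT, from 46.1, 41.7 and 46.6 CPM to 31.6, 15.4 and 16.0 CPM. In YT at 8 h Nitab4.5_0001478g0100 fell from 13.8, 12.8 and 9.32 CPM to 6.17, 3.70 and 5.83 CPM, and Nitab4.5_0001478g0230 from 8.24, 9.58 and 10.4 CPM to 5.36, 1.99 and 4.88 CPM. The call of Nitab4.5_0001478g0110 was kept in 4 of 6 fits that each left out 1 library, and the other 2 genes in 5 of 6.

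On Nitab4.5_0002545 the main response was that of g0050, which rose late. It went from 35.4, 45.6 and 38.6 CPM to 601, 597 and 425 CPM at 8 h in TT, a log2 change of 3.76 (SE 0.41, adjusted p = 1.58e-08), and by 3.64 in YT. The neighbours Nitab4.5_0002545g0080 and g0060 rose at 8 h in TT, from 2.48, 2.56 and 3.72 CPM to 7.88, 14.9 and 11.3 CPM and from 0.911, 5.16 and 3.68 CPM to 6.73, 14.9 and 11.9 CPM. Both were called at 4 h in YT too, where the calls were kept in only 3 and 2 of 6 fits that each left out 1 library.

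Nitab4.5_0002545g0110 rose at 2 h in TT, from 9.06, 7.51 and 9.30 CPM to 16.6, 13.01 and 22.4 CPM. Nitab4.5_0002545g0020 fell at 8 h in TT, from 7.66, 6.80 and 7.40 CPM to 3.21, 2.38 and 5.23 CPM. Nitab4.5_0002545g0120 fell at 8 h in YT, from 8.20, 8.31 and 6.83 CPM to 4.10, 1.53 and 3.06 CPM. The calls of g0110 and g0020 were kept in 4 and 3 of 6 fits that each left out 1 library, and DESeq2 did not call g0020.

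On Nitab4.5_0002809 both called genes fell. Nitab4.5_0002809g0030 fell at 8 h in YT from 250.0, 255 and 268 CPM to 119, 80.8 and 91.5 CPM, a log2 change of -1.41 (SE 0.246, adjusted p = 3.86e-05), and in TT by 1.03. The TT call was kept in 3 of 6 fits that each left out 1 library, and DESeq2 did not make it. Nitab4.5_0002809g0040 fell at 8 h in YT from 2.29, 1.76 and 1.51 CPM to 1.04, 0.0925 and 0.331 CPM, and its call was kept in 2 of 6 fits that each left out 1 library. In TT it was called at 4 and 8 h, with log2 changes of -1.70 and -1.82. These TT calls were kept in 0 and 3 of 6 such fits.

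On Nitab4.5_0001751 the called genes were g0030 and the DBP factor g0070. Nitab4.5_0001751g0030 rose from 7.57, 5.79 and 7.06 CPM to 22.1, 18.7 and 28.3 CPM at 8 h in TT, and was called there from 0.5 to 2 h as well. In YT it was called at 4 and 8 h, with log2 changes of 1.14 and 1.29. These calls were kept in 5 and 6 of 6 fits that each left out 1 library. The DBP factor rose from 2.40, 2.64 and 3.68 CPM to 8.76, 9.63 and 6.54 CPM at 8 h in TT, a log2 change of 1.51 (SE 0.212, adjusted p = 1.16e-06). In YT, where it started at 19.03, 15.4 and 15.4 CPM, it stood at 26.4, 15.7 and 22.7 CPM at 8 h and was not called.

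On Nitab4.5_0002587, g0040 responded within 0.5 h in both cultivars. From 79.5, 82.3 and 77.9 CPM in TT it reached 370, 458 and 521 CPM at 0.5 h (log2 fold change 2.49, SE 0.266, adjusted p = 6.45e-08). From 90.3, 126 and 97.9 CPM in YT it reached 489, 716 and 712 CPM at 8 h, a log2 change of 2.61 (SE 0.267, adjusted p = 8.09e-09). It was called at every time of cold in both cultivars.

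Nitab4.5_0002587g0020 rose from 61.5, 58.3 and 64.0 CPM to 168, 193 and 169 CPM at 8 h in TT, a log2 change of 1.53 (SE 0.108, adjusted p = 4.23e-12), and by 1.21 in YT. Nitab4.5_0002587g0080 rose from 21.7, 22.9 and 26.6 CPM to 78.7, 62.3 and 69.1 CPM at 8 h in TT. Nitab4.5_0002587g0050 rose at 1 h in TT, from 3.35, 4.82 and 5.78 CPM to 7.62, 11.2 and 10.2 CPM, and its call was kept in 4 of 6 fits that each left out 1 library. Nitab4.5_0002587g0130 fell at 8 h in YT to 0, 0 and 2 counts, at least 3.59-fold lower than at 0 h. It was also called at 8 h in TT (log2 change -1.97), a call kept in 3 of 6 fits that each left out 1 library.

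**Figure D4:**
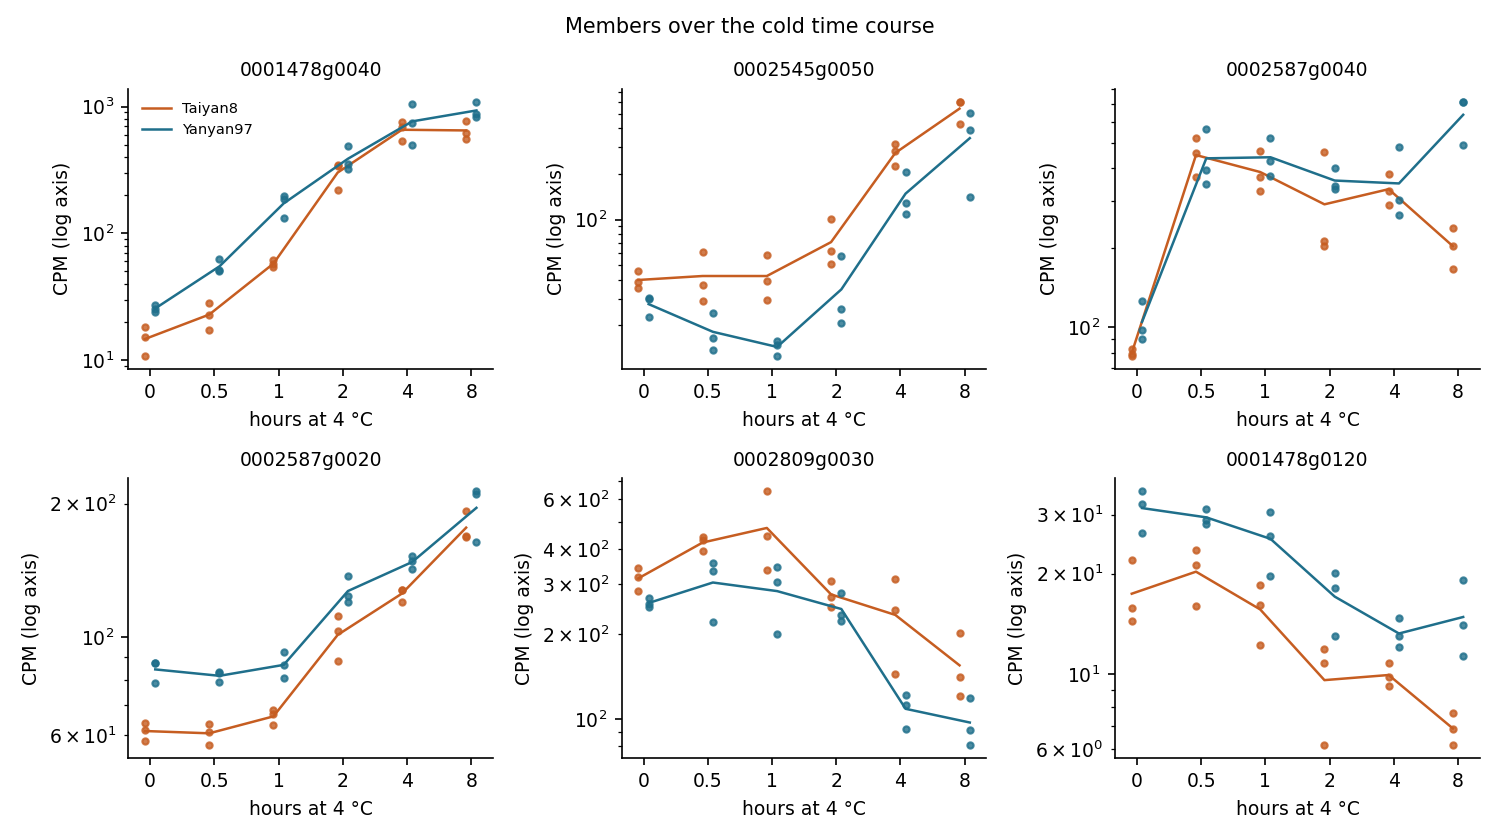
Levels of 6 genes with a called response to cold over the time course, in CPM on a log axis (vertical axis) against hours at 4 °C (horizontal axis). Points are single libraries and lines join the means of 3 libraries per cultivar and time. Nitab4.5_0002587g0040 rises by 0.5 h, Nitab4.5_0001478g0040 and Nitab4.5_0002545g0050 reach their highest levels at 4 to 8 h, and Nitab4.5_0002809g0030 and Nitab4.5_0001478g0120 fall.

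Whether the cultivars responded differently was tested as the response in YT minus that in TT. The 60 again include the 3 genes at the floor in TT, which give no TT response to compare. Among the 60 genes 0 were called by edgeR at 0.5, 1, 2 and 4 h, where 1.57%, 0.114%, 1.98% and 0.918% of all genes were called. At an unadjusted p under 0.05 there were 6, 2, 4 and 6 of the 60 genes at those times, where 21.8%, 10.2%, 20% and 20.3% of all genes were. DESeq2 called 1, 0, 0 and 2 of the 60, where it called 5.06%, 0.497%, 4.56% and 3.36% of the genes it gave an adjusted p. Those genes numbered 13508, 23946, 20103 and 19553, so these shares are not on the same base as the edgeR shares. How many of the 60 were among them was not determined. At 8 h 3 of the 60 genes were called by edgeR, where 4.55% of all tested genes were. DESeq2 called 6 at 8 h, where it called 7.05% of the 20653 genes it gave an adjusted p.

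These 3 genes lie on the last 2 scaffolds. Nitab4.5_0002587g0040 stood at 489, 716 and 712 CPM at 8 h in YT and at 203, 167 and 239 CPM in TT, an interaction of 1.26 (SE 0.358, adjusted p = 0.0295). The DBP factor Nitab4.5_0001751g0070 had an interaction of -1.13 (SE 0.288, adjusted p = 0.017), with log2 fold changes of 1.51 in TT and 0.38 in YT. Nitab4.5_0002587g0050 had an interaction of -1.38 (SE 0.357, adjusted p = 0.0186), from 9.33, 7.72 and 8.57 CPM at 8 h in TT and 8.83, 8.78 and 10.5 CPM in YT, where it had started at 14.6, 12.6 and 12.8 CPM. The count of 3 fell to 0 without TT 0 h replicate 1 or without YT 8 h replicate 2, and became 5 without YT 8 h replicate 1 and 6 without YT 8 h replicate 3.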

How the data were processed

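RNA-seq of tobacco leaves was analysed in 36 libraries, grouped by cultivar and time from the sample labels alone. Per the methods and tool notes, the authors checked reads with FastQC 0.11.5, trimmed them with Trim Galore 0.6.4, aligned them with HISAT2 2.0.5, dropped poorly placed alignments with SAMtools 1.9 and counted reads per gene with featureCounts 1.6.4. The deposited counts are raw and unstranded. The deposited TPM come from StringTie 1.3.4d and are scaled for length and depth. Positions are those of the gene models in the count table. The authors' test was DESeq2.

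Counts were fitted in R 4.3.3 with edgeR 4.0.16 (limma 3.58.1, filterByExpr, TMM, quasi-likelihood test, 1 term per group, all libraries), and all tests are two-sided. CPM are TMM-scaled. Plots were drawn with matplotlib 3.10.9 in Python 3.11.15. DESeq2 1.42.0 and the other alternatives are in the closing section, and the fits were tested on simulated data. Genes were named if they averaged at least 10 CPM, were called in any test, are described in the study's lists or lie at an edge; others are marked as chosen after their values were seen. The genes, lists and rules were chosen with earlier results of these data known. The replicates are described as biological. No sequences are shown, since no genome was used here.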

Additional observations from a re-analysis of the deposited data

Results flagged for a closer look

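The response to 8 h of cold differed between the cultivars for 3 genes, by the interaction in the edgeR fit. The difference (YT minus TT, log2) was -1.13 for Nitab4.5_0001751g0070, -1.38 for Nitab4.5_0002587g0050 and 1.26 for Nitab4.5_0002587g0040. Of the 12 fits that each left out 1 library, 9, 10 and 5 kept these calls. All 3 were also called by DESeq2. They are 3 of 60 genes, where 4.55% of all tested genes were called.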

How the results depend on the processing

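Leaving out each library in turn gave counts of called genes in TT of 2 to 4, 3 to 4, 5 to 6, 4 to 9 and 14 to 18 over the 5 times of cold. In YT they were 1 to 2, 2 to 3, 2 to 3, 6 to 11 and 11 to 16. The interaction gave 0 to 1 at 0.5, 2 and 4 h, 0 at 1 h and 0 to 6 at 8 h, against 3 with all libraries. The median cultivar difference ran from 0.78 to 0.88. With DESeq2 the interaction called 1, 2 and 6 genes at 0.5, 4 and 8 h, and the fit of only the libraries compared called 2 at 4 h. The median cultivar difference became 0.68 on log2(TPM + 1) and 0.96 on log2(TPM + 0.1), against a spread between replicates of 0.0742. The cause was not tested. Other counts stayed within 1.5 times with DESeq2, DESeq2's size factors, no filter on low counts and only the libraries compared. No gene's called change was reversed. With the replicate number as a block the counts at 8 h were 17 in TT, 13 in YT and 3 for the interaction, and the counts at all times were the same numbers as without it. Of the named calls 65 were kept and 1 was lost, that of Nitab4.5_0002809g0040 at 4 h in TT (log2 -1.68). Same-numbered libraries did not pair: every correlation of deviations was over 0.1 in 0 of 16 comparisons, with a range from -0.192 to 0.233.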
